A study of Mus musculus with 20 samples.

Results

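The genes described here are 40 components of the contractile apparatus and metabolism of skeletal muscle fibres, measured by RNA-seq in mouse tibiae. They were picked by gene symbol, with earlier results of these data known. Each symbol matched 1 row, so 40 of the 54446 genes of the deposited table are covered. By role they comprise 11 thick filament genes, 9 thin filament genes, 9 genes of the Z disc, M line and titin filament, 5 calcium handling genes, 5 genes of energy and oxygen supply and 1 transcription factor. By fibre type, 15 are fast fibre genes, 8 are slow fibre genes and 17 are shared by both.

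RNA came from pulverised tibiae of male C57BL/6J mice aged 3 months, with 5 libraries in each of 4 groups. Vehicle_Ctrl and Vehicle_Load mice received water by subcutaneous injection, and DEX_Ctrl and DEX_Load mice received the glucocorticoid dexamethasone (DEX) at 1 mg/kg, for 5 days. The left tibia was loaded axially with 40 cycles of -13 N a session, each held for 0.1 s with 10 s of rest, and the right tibia of the same mouse was the unloaded control, so limb side and loading cannot be told apart. The labels do not say which libraries come from the same mouse, and the fits treat all libraries as separate. The sources differ on the sessions: the labels give days 1 and 3, whereas another description of the experiment has 3 sessions a week and collection 4 hours after a last session on day 5. The study left out a sample named DEX-4 without naming the limb. Here replicate 4 of DEX_Ctrl was shown but left out of group means and tests, which therefore used 19 libraries, 4 of them DEX_Ctrl.

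A skeletal muscle fibre shortens when myosin heads of the thick filament pull on actin of the thin filament, and troponin and tropomyosin gate that step by calcium. Fast and slow fibres use different genes for the same parts: separate myosin heavy and light chains, troponins and calcium pumps. The lower leg muscles of the mouse are mostly fast, with a slow component in the soleus, and they attach along the tibia. The 40 genes are known from muscle fibres rather than from bone cells, so muscle left on the bone is where their reads are looked for, and in bulk RNA fewer muscle cells and less RNA per cell cannot be told apart.

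The labelled tissue was checked against markers of bone and of another striated muscle. The 7 osteoblast markers summed to between 41011 and 144462 CPM (each count scaled to a common library total, with TMM factors) in Vehicle_Ctrl and between 4537 and 22939 CPM in DEX_Load. Of 7 cardiac markers 3 stayed under 1 CPM in every library, Myl7 at 0, and the cardiac list summed to between 7.92 and 81.7 CPM in the 19 libraries. Library totals ran from 4641437 to 13032018 counts. Whether counting used strand is not given in the sources used here, so reads of a gene and of an overlapping gene on the other strand may not have been told apart.

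Promoter sequence is shown for the 4 genes that had the smallest p-value of the 40 in a comparison and a window in the RefSeq table (GRCm38.p6). Each is given 5′ to 3′ on the gene's strand, from the 250 bases before the RefSeq start site, less any stretch that the GENCODE annotation places in an exon. Capitals mark the letters CANNTG (the E-box read by myogenic factors), TATAAA, and CTA followed by any 4 bases and TAG (the core of the MEF2 motif), each searched on both strands. Myh2 (the myosin heavy chain of fast oxidative fibres) is given at chr11:67170777-67171026, + strand, and holds none of the 3.
Myh2: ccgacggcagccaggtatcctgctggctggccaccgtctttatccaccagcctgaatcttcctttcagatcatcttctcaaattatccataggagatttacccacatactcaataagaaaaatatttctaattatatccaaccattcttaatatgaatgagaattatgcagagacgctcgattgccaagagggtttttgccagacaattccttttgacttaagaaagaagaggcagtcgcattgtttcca
Myh1 (the heavy chain of the next faster fibre type) lies next to it, as the gene bodies are at chr11:67171027-67197517 (Myh2) and chr11:67200052-67224575 (Myh1), and is given at chr11:67199852-67200051, + strand.
Myh1: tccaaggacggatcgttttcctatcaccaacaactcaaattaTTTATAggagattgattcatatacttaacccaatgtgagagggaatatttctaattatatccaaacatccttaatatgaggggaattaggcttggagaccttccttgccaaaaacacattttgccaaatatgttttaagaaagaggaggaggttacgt
Myl1 (the fast alkali light chain) is given at chr1:66945144-66945290, - strand, a stretch that lies inside the longer annotated gene.
Myl1: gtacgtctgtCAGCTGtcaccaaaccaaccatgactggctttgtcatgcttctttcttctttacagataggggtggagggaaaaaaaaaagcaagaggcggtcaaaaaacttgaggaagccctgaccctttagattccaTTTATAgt
Actn2 (alpha-actinin 2, which anchors thin filaments at the Z disc) is given at chr13:12340761-12340982, - strand.
Actn2: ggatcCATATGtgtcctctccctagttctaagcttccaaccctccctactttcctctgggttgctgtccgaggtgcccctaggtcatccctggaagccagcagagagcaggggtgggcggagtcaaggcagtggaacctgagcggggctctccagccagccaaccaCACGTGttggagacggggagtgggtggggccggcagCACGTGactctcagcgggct
Motifs were counted over the whole 250 bases, in the windows of 30 of the 40 genes. CANNTG occurred in 25 of the 30 (83.3%), against 66.2% of the 32851 windows of all genes. It occurred in 8 of 8 slow genes and 7 of 10 fast genes, and was absent from the windows of Myh1, Myh2, Pvalb, Ldb3 and Ryr1. TATAAA occurred in 6 of 30 (20%), against 12.4% of all windows, and the MEF2 core in 2 of 30 (6.67%), against 3.2%. The Myh1 and Myh2 windows shared an unbroken stretch of 21 bases, aatatttctaattatatccaa, of which the first 20 also stood in the Myh4 window. These matches describe the letters only.

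The 40 genes took between 0.584% and 11.1% of all counts of a library, and the amount differed several-fold between tibiae of the same group. In Vehicle_Ctrl the summed level was 129574, 48537, 87724, 96653 and 24506 CPM in replicates 1, 2, 4, 5 and an unnumbered library, in that order. In Vehicle_Load it was 52335, 12025, 19510.1, 62219 and 31317 CPM in the same order. The highest library of each vehicle group thus held 5.29 and 5.17 times the lowest. In DEX_Ctrl the sum was 16384, 10553, 8888, 5198 and 62139.9 CPM in replicates 1 to 5, the fourth value being the library left out. In DEX_Load it was 25195, 65884, 72356, 44419.9 and 55919 CPM in replicates 1 to 5. Among the DEX_Ctrl libraries used, replicate 5 stood at 6.99 times the lowest and above 3 of the 5 DEX_Load libraries, whereas the other 3 lay below all DEX_Load libraries.

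The group means were 77399 ± 41322 CPM in Vehicle_Ctrl, 35481 ± 21339.9 CPM in Vehicle_Load and 52755 ± 18679 CPM in DEX_Load (SD, n = 5 each), and 24492 ± 25304 CPM in DEX_Ctrl (SD, n = 4). On average the unloaded tibiae read higher than the loaded ones in vehicle, and the loaded ones higher under DEX. No test was made on the sum, and the groups overlapped in all 4 comparisons. Between libraries with the same number, the loaded one read lower in 4 of 4 vehicle pairs, and under DEX it read higher for numbers 1 to 3 and lower for number 5. Ttn, the giant titin filament, alone gave between 39.9% and 49.1% of the summed level in every library.

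**Figure D1:**
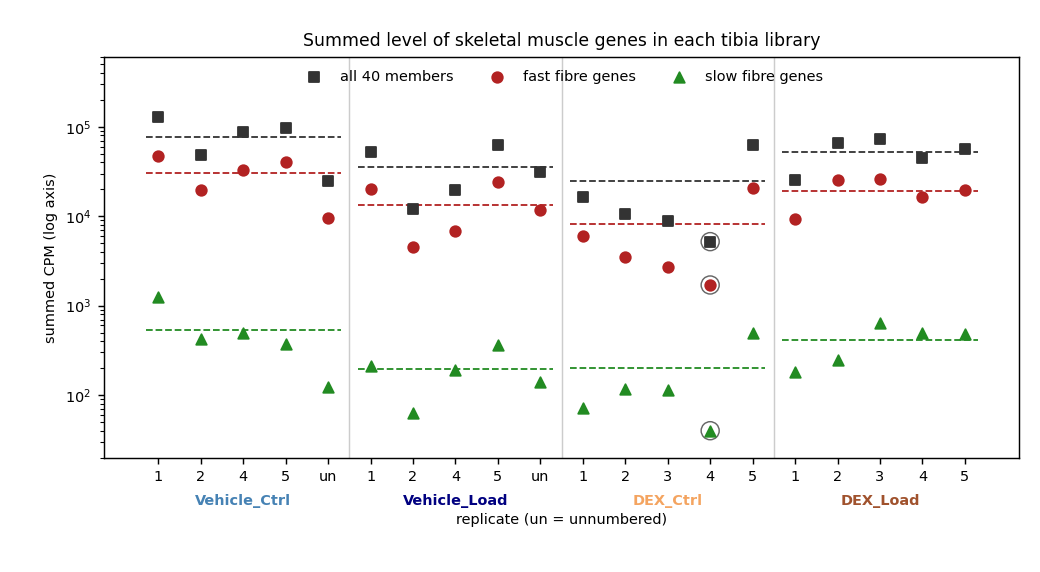
CPM summed over all 40 members (squares), the 15 fast genes (circles) and the 8 slow genes (triangles) in each of the 20 libraries, on a log axis, with dashed lines for group means and rings around DEX_Ctrl replicate 4, which the means leave out. The sum of all members ranges from 5198 CPM in DEX_Ctrl replicate 4 to 129574 CPM in Vehicle_Ctrl replicate 1, and the fast and slow sums lie far apart in every library.

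The spread of these genes within a group exceeded that of most genes. On the log2 scale, the median SD between replicates was 0.995 for the 40 genes in Vehicle_Ctrl, 0.961 in Vehicle_Load, 1.21 in DEX_Ctrl and 0.654 in DEX_Load, against 0.342, 0.298, 0.306 and 0.410 over all 22659 genes kept for display. Most of the 40 shared their highest and lowest libraries. In Vehicle_Ctrl, replicate 1 was the highest library for 32 of the 40 genes and the unnumbered library the lowest for 38. In DEX_Ctrl, replicate 5 was the highest for 35 and replicate 4 the lowest for 34, and in Vehicle_Load replicate 5 was the highest for 36 and replicate 2 the lowest for 35. Measured against the summed level of the other members, a fast gene varied with a median SD of 0.334 (log2, over 20 libraries) and a shared gene with 0.275, whereas a slow gene varied with 1.32. Neb (nebulin, the ruler of the thin filament) held the steadiest ratio, with an SD of 0.111. By these medians the slow genes followed the bulk of the muscle reads less closely, but the slow gene Mybpc1 had an SD of 0.529 and the fast gene Myh2 one of 1.23. Of the 8 slow genes 6 had under 10 counts in at least 1 library.

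**Figure D2:**
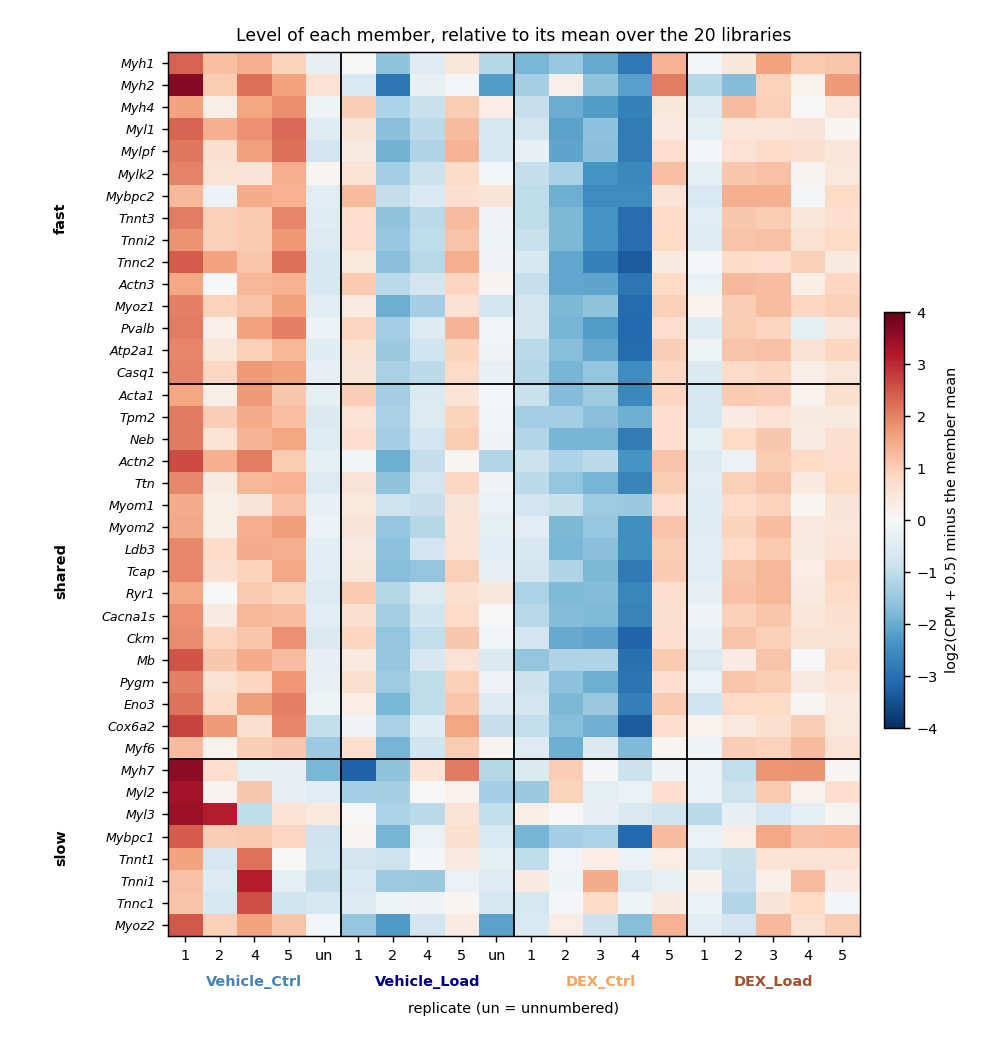
Each row is a member and each column a library, coloured by log2(CPM + 0.5) minus the member's mean over the 20 libraries, with fast genes on top, shared genes in the middle and slow genes at the bottom. Columns are nearly uniform from top to middle, with 31 of the 40 members highest in Vehicle_Ctrl replicate 1 and 30 lowest in DEX_Ctrl replicate 4, and the slow rows break the pattern.

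Per kilobase of exon, the 3 most abundant members in Vehicle_Ctrl were fast ones. Tnnc2 (fast troponin C) came first with 2906 ± 1747 CPM per kb (SD, n = 5), followed by Myh4 at 2093 ± 1112, Tnnt3 at 1539 ± 856 and the shared gene Acta1 (skeletal alpha-actin) at 1432 ± 762. These neighbours did not differ beyond their spread, and 74.0% of the exon bases of Tnnc2 overlap exons of Ube2c, so its first place is uncertain. The 7 lowest places of the 40 were all taken by slow genes, from Tnnt1 at 8.44 ± 7.76 CPM per kb down to Tnni1 at 1.64 ± 2.40. Mybpc1, listed as the slow myosin binding protein C but also made in fast fibres, was the exception among slow genes at 99.9 ± 76.3 CPM per kb. Slow genes made up between 0.922% and 2.58% of the summed fast and slow CPM in Vehicle_Ctrl, 1.03% and 2.72% in Vehicle_Load, 1.17% and 4.07% in DEX_Ctrl, and 0.982% and 2.95% in DEX_Load.

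The levels per library follow, in CPM and in the order of replicates given above. Among thick filament genes, Myh4, the myosin heavy chain of the fastest fibres, read 16421, 6297, 16034, 19592 and 4608 in Vehicle_Ctrl and 10614, 2266, 2866, 10737 and 6529.5 in Vehicle_Load. It read 2832, 1358, 1147, 813 and 7299.6 in DEX_Ctrl and 3637, 12917, 10280.3, 5466 and 7442 in DEX_Load. Its groups overlapped in every comparison, with Vehicle_Ctrl replicate 5 highest. Myh1 read 8996, 4095, 4859.5, 3246 and 1394 in Vehicle_Ctrl and 1759, 573, 1227, 2440.2 and 794 in Vehicle_Load. Under DEX it was at 494, 613, 432, 244 and 4646 in the unloaded tibiae and 1667, 2397, 5355, 3642 and 3769 in the loaded ones. DEX_Ctrl replicate 5 stood far above the other DEX_Ctrl libraries and within the DEX_Load range. Myh2 read 2427, 397, 894, 603 and 293 in Vehicle_Ctrl and 127, 25.7, 158, 190.0 and 41.5 in Vehicle_Load. These vehicle groups of Myh2 did not overlap, as the lowest unloaded value lay above the highest loaded one. In DEX_Ctrl it read 77.1, 228, 63.5, 42.9 and 807 and in DEX_Load 88.4, 58.9, 374, 214 and 644, which overlapped widely.

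Myh7, the slow heavy chain that the heart also uses, read 126, 16.9, 7.64, 7.98 and 2.53 in Vehicle_Ctrl and 0.638, 3.03, 15.0, 44.2 and 4.31 in Vehicle_Load. It read 6.63, 20.6, 9.51, 5.38 and 9.09 in DEX_Ctrl and 8.32, 4.90, 35.5, 36.5 and 10.4 in DEX_Load. Vehicle_Ctrl replicate 1 stood above every other library. Of the CPM of the 4 adult heavy chains, Myh4 took between 57.2% and 88.6% over the 20 libraries and Myh7 at most 0.929%. Myh2 took 4.74 ± 2.33% in Vehicle_Ctrl and 1.52 ± 1.26% in Vehicle_Load (SD, n = 5 each). These shares rest on genes with shared sequence: 25.4% of the 50-base stretches of Myh1 transcripts, 22.9% of Myh2, 18.9% of Myh4 and 15.6% of Myh7 also occur in transcripts of other genes, for Myh7 mostly in Myh6, so reads may have been split between them.

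**Figure D3:**
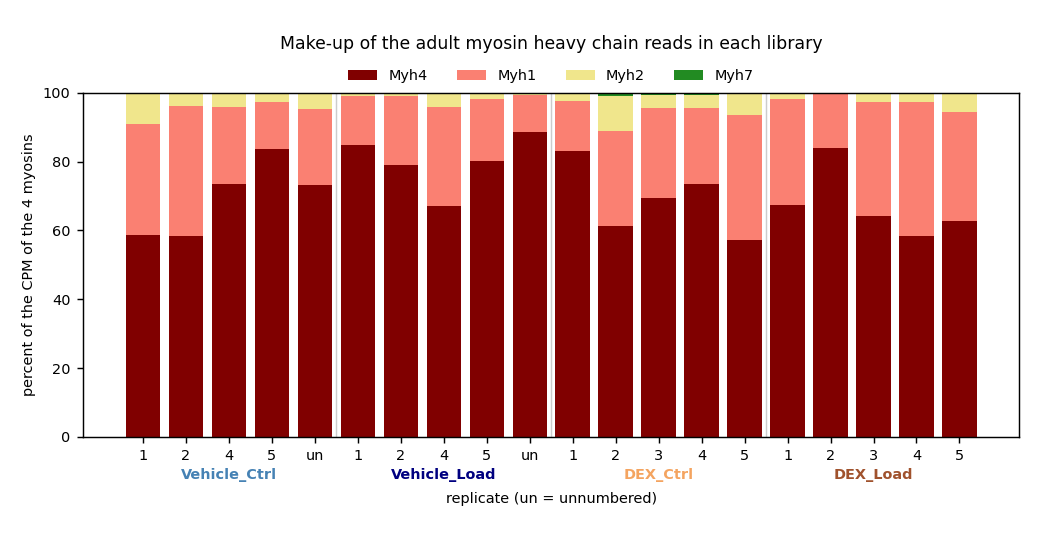
Stacked bars give the percent of the CPM of 4 adult myosin heavy chain genes taken by each in every library. Myh4 and Myh1 fill nearly all of each bar, Myh2 is widest in DEX_Ctrl replicate 2 and Vehicle_Ctrl replicate 1, and Myh7 is at most 0.929%.

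The light chains gave the same contrast of fast and slow. Mylpf, the fast regulatory light chain, read 623, 224, 452, 667 and 84.4 in Vehicle_Ctrl and 186, 38.3, 62.1, 370.5 and 90.0 in Vehicle_Load. It read 118, 32.9, 45.3, 20.5 and 234 in DEX_Ctrl and 140.5, 218, 244, 227 and 205 in DEX_Load. Its slow counterpart is Myl2, which the heart ventricle uses as well. Myl2 read 17.0, 1.38, 3.14, 0.901 and 0.770 in Vehicle_Ctrl and 0.182, 0.195, 1.25, 1.42 and 0.172 in Vehicle_Load. Under DEX it stood at 0.121, 2.70, 0.865, 0.949 and 2.25 without loading and 0.939, 0.490, 3.10, 1.42 and 2.27 with it. A single library, Vehicle_Ctrl replicate 1 with 128 counts, stood out, and Myl2 had between 1 and 30 counts in the others. Myl1 read 2198, 1168, 1559, 2094 and 313 in Vehicle_Ctrl and 631, 137, 214, 1045 and 269.7 in Vehicle_Load. It read 265, 98.5, 140.2, 62.8 and 576 in DEX_Ctrl and 339, 608, 619, 624 and 459.7 in DEX_Load. Of its 50-base stretches 11.7% also occur in the pseudogene Mylf-ps. All DEX_Ctrl values of Myl1 lay below 4 of the 5 Vehicle_Ctrl values, and replicate 5 lay above the fifth.

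Of the 9 thin filament genes, the 6 that are fast or shared ranked between 1 and 15 of the 40 per kilobase in Vehicle_Ctrl, and the 3 slow ones ranked between 34 and 40. Acta1 read 3204, 1252, 3485, 2245 and 816 in Vehicle_Ctrl and 2138, 412, 712, 1549 and 1038 in Vehicle_Load. It read 575, 318, 396, 178 and 1944 in DEX_Ctrl and 654, 2227, 2113, 1191 and 1674 in DEX_Load. Vehicle_Ctrl replicate 4, not replicate 1, was its highest library. Neb, whose protein runs along the thin filament, read 10140.1, 3442, 6071, 7082 and 1651 in Vehicle_Ctrl and 3828, 928, 1392, 4819.7 and 2171 in Vehicle_Load. It read 1058, 662, 657, 342 and 3825 in DEX_Ctrl and 1861, 4164, 5030.0, 3016 and 3668 in DEX_Load. The fast troponins had the same highest and lowest library in both vehicle groups as Neb. Tnnt3, the fast tropomyosin-binding troponin, read 3929, 1878, 1993, 3687 and 691 in Vehicle_Ctrl and 1552, 315, 462, 2316 and 875 in Vehicle_Load. In the DEX groups its levels were 478, 273, 181, 116 and 1632 without loading and 708, 2033, 1942, 1336 and 1543 with it. Tnni2, the fast inhibitory troponin, read 1550.1, 860.5, 919, 1493 and 306 in Vehicle_Ctrl, 715, 155, 219, 977 and 392 in Vehicle_Load, 239, 129, 86.7, 54.1 and 769.7 in DEX_Ctrl and 319, 985, 1002, 686 and 775 in DEX_Load. For both troponins DEX_Ctrl replicates 1 to 3 lay below every DEX_Load library, and replicate 5 lay among them.

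The slow troponins had another highest library than the fast ones. Tnni1, the slow inhibitory troponin, read 5.04, 1.17, 21.1, 1.42 and 0.770 in Vehicle_Ctrl and 1.09, 0.391, 0.375, 1.55 and 1.21 in Vehicle_Load. It read 2.65, 1.69, 6.30, 1.16 and 1.50 in DEX_Ctrl and 2.28, 0.784, 2.35, 5.35 and 2.60 in DEX_Load. Tnni1 is at the edge of what this depth resolves, with 3 to 51 counts in all libraries but Vehicle_Ctrl replicate 4, which had 201. Tnnt1, the slow tropomyosin-binding troponin, read 29.6, 5.62, 43.4, 9.27 and 5.17 in Vehicle_Ctrl and 5.38, 4.98, 9.01, 12.4 and 7.07 in Vehicle_Load. It read 4.34, 8.56, 11.5, 7.91 and 11.5 in DEX_Ctrl and 5.50, 4.80, 13.9, 14.2 and 14.1 in DEX_Load. Vehicle_Ctrl replicates 4 and 1 were the only libraries above 15 CPM. Tnnc1, the slow and cardiac troponin C, read 4.38, 0.849, 12.7, 0.773 and 0.880 in Vehicle_Ctrl and 1.00, 1.47, 1.50, 1.81 and 0.862 in Vehicle_Load. It read 0.844, 1.58, 3.21, 1.48 and 2.34 in DEX_Ctrl and 1.34, 0.490, 2.67, 3.31 and 1.62 in DEX_Load. All 3 slow troponins were highest in Vehicle_Ctrl replicate 4, which was also the highest library for Myh3 at 365 CPM and Myh8 at 388 CPM, the embryonic and perinatal heavy chains, and the part of those genes in the slow troponin values was not tested. The same library had the highest sums of its group for cardiac markers (81.7 CPM, against 7.92 to 21.4 in the others), smooth muscle markers (644.6 CPM, against 213 to 362) and tendon and periosteum markers (7621 CPM, against 3404 to 4321).

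Among genes of the Z disc and titin filament, Ttn read 57319.7, 19364, 38256, 39382 and 10263 in Vehicle_Ctrl and 21483, 4953, 8842, 26789 and 13557 in Vehicle_Load. It read 7286, 5032, 4184, 2427 and 30484 in DEX_Ctrl and 11156, 28912, 33152, 19697 and 26489.8 in DEX_Load. Its exons cover 116.8 kb, the most of the 40. Actn2 read 432, 189, 287, 142 and 54.1 in Vehicle_Ctrl and 65.0, 17.7, 35.5, 73.2 and 31.0 in Vehicle_Load. It read 38.5, 29.4, 33.5, 13.1 and 154 in DEX_Ctrl and 47.5, 59.3, 139.8, 122 and 110.5 in DEX_Load. In vehicle, 4 of the 5 unloaded libraries lay above all loaded ones. Tcap (telethonin, the cap of titin at the Z disc) read 269, 110.0, 135, 207 and 52.2 in Vehicle_Ctrl and 96.0, 21.3, 23.1, 136 and 56.1 in Vehicle_Load. It read 41.7, 30.3, 19.9, 9.38 and 145 in DEX_Ctrl and 52.2, 154, 177, 87.4 and 124 in DEX_Load, with the same high and low libraries as Ttn.

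The calcium handling and energy genes named here had the same highest and lowest vehicle libraries as Ttn. Atp2a1, the calcium pump of fast fibres, read 4357, 1586, 2210.4, 2834 and 809 in Vehicle_Ctrl and 1734, 408, 656, 2083 and 1018 in Vehicle_Load. It read 540.3, 347, 273, 134 and 2249.7 in DEX_Ctrl and 991, 2493, 2578, 1737 and 2069 in DEX_Load. Of its exon bases 21.9% overlap exons of Rabep2. Pvalb, parvalbumin, a calcium buffer that speeds relaxation, read 461, 127, 341, 449.5 and 94.1 in Vehicle_Ctrl and 202, 41.9, 76.3, 286 and 102 in Vehicle_Load. It read 66.7, 30.3, 23.1, 12.6 and 182 in DEX_Ctrl and 78.8, 225, 203, 87.6 and 156 in DEX_Load. Ckm, the muscle creatine kinase that regenerates ATP, comes next. Ckm read 1629, 789, 949, 1561 and 289.8 in Vehicle_Ctrl and 797, 146, 220.0, 929 and 405 in Vehicle_Load. Under DEX it was at 258, 108, 100.3, 47.2 and 693 without loading and 352, 959.5, 850.2, 663 and 669 with it. Its DEX_Ctrl replicates 1 to 3 lay below every DEX_Load library. Mb, myoglobin, which stores oxygen and is richest in oxidative fibres, read 520.0, 189, 254, 213 and 71.6 in Vehicle_Ctrl and 118, 30.4, 56.8, 134 and 59.4 in Vehicle_Load. It read 29.7, 38.5, 38.5, 10.9 and 186 in DEX_Ctrl and 60.9, 112, 199.7, 91.5 and 154 in DEX_Load, and 31.9% of its exon bases overlap exons of other genes. Myf6, the myogenic factor MRF4 and the only transcription factor of the 40, read 31.3, 14.0, 25.8, 27.4 and 4.29 in Vehicle_Ctrl and 20.5, 3.13, 7.01, 26.4 and 13.8 in Vehicle_Load. It read 8.69, 2.93, 8.28, 3.37 and 13.3 in DEX_Ctrl and 11.1, 25.5, 24.3, 31.5 and 19.2 in DEX_Load. All its groups overlapped.

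The first comparison asks what loading did in vehicle-treated mice. The muscle genes were lower in loaded than in unloaded tibiae: all 40 had a negative log2 fold change, from -3.17 to -0.51, with a median of -1.29, while over all 17982 genes tested the median was -0.002 and 49.7% were positive. None of the 40 passed an adjusted p of 0.05 in edgeR's quasi-likelihood test, and 0% of all genes did. At an unadjusted p under 0.05 were 27 of the 40, against 9.86% of all genes, and DESeq2 called 2 of the 40, both lower, against 0.462% of all genes called lower by DESeq2. Myh2 had the smallest p-value with a log2 fold change of -3.11 ± 0.68 (SE), edgeR adjusted p = 0.220. Actn2 followed at -2.34 ± 0.51 (SE), edgeR adjusted p = 0.220.

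By fibre type the slow genes had a median log2 fold change of -2.13, the fast genes -1.17 and the shared genes -1.17. Besides Myh2, the most negative values were those of Myl3 at -3.17 ± 0.94 (SE), Myl2 at -2.94 ± 0.97 (SE), Myoz2 (a Z disc protein of slow fibres that tethers calcineurin) at -2.90 ± 0.69 (SE) and Tnni1 at -2.67 ± 0.87 (SE). Nearest to 0 were the shared gene Ryr1 (the calcium release channel) at -0.51 ± 0.44 (SE), Mybpc2 (the fast myosin binding protein C) at -0.56 ± 0.46 (SE) and Myf6 at -0.56 ± 0.55 (SE). Myh4 stood at -0.95 ± 0.51 (SE), Acta1 stood at -0.93 ± 0.46 (SE), Ckm at -1.09 ± 0.54 (SE), Tnnt3 at -1.17 ± 0.56 (SE), Ttn at -1.14 ± 0.51 (SE) and Mb at -1.67 ± 0.49 (SE). The slow values rested on few libraries. Without Vehicle_Ctrl replicate 1, the log2 fold change of Myh7 turned from -1.30 to 0.57, and the slow median moved from -2.13 to -1.45.

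None of 12 marker lists of other cell types separated the groups without overlap. The 9 tendon and periosteum markers summed to between 5405 and 9600 CPM in Vehicle_Load and 3404 to 7621 CPM in Vehicle_Ctrl. Chondrocyte markers had a median sum of 1479 CPM in Vehicle_Load and 713 CPM in Vehicle_Ctrl. Medians of the osteoblast list (84764 and 89685 CPM) and the osteocyte list (1636 and 1937 CPM) were lower in Vehicle_Load. The part of these lists in the muscle values was not tested. Reads over olfactory and vomeronasal receptor genes, taken as a measure of background, lay between 260.5 and 932.3 CPM in Vehicle_Load and between 391 and 1364 CPM in Vehicle_Ctrl. With that background as a covariate the median of the 40 genes was -0.88 and 39 stayed negative. Of 64 further muscle genes 61 were tested, 59 had a negative log2 fold change and none passed the adjusted threshold. The 2 with the smallest p-values were the Z disc stress genes Ankrd2 at -1.96 ± 0.47 (SE), edgeR adjusted p = 0.229 and Csrp3 at -2.84 ± 0.68 (SE), edgeR adjusted p = 0.229.

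**Figure D4:**
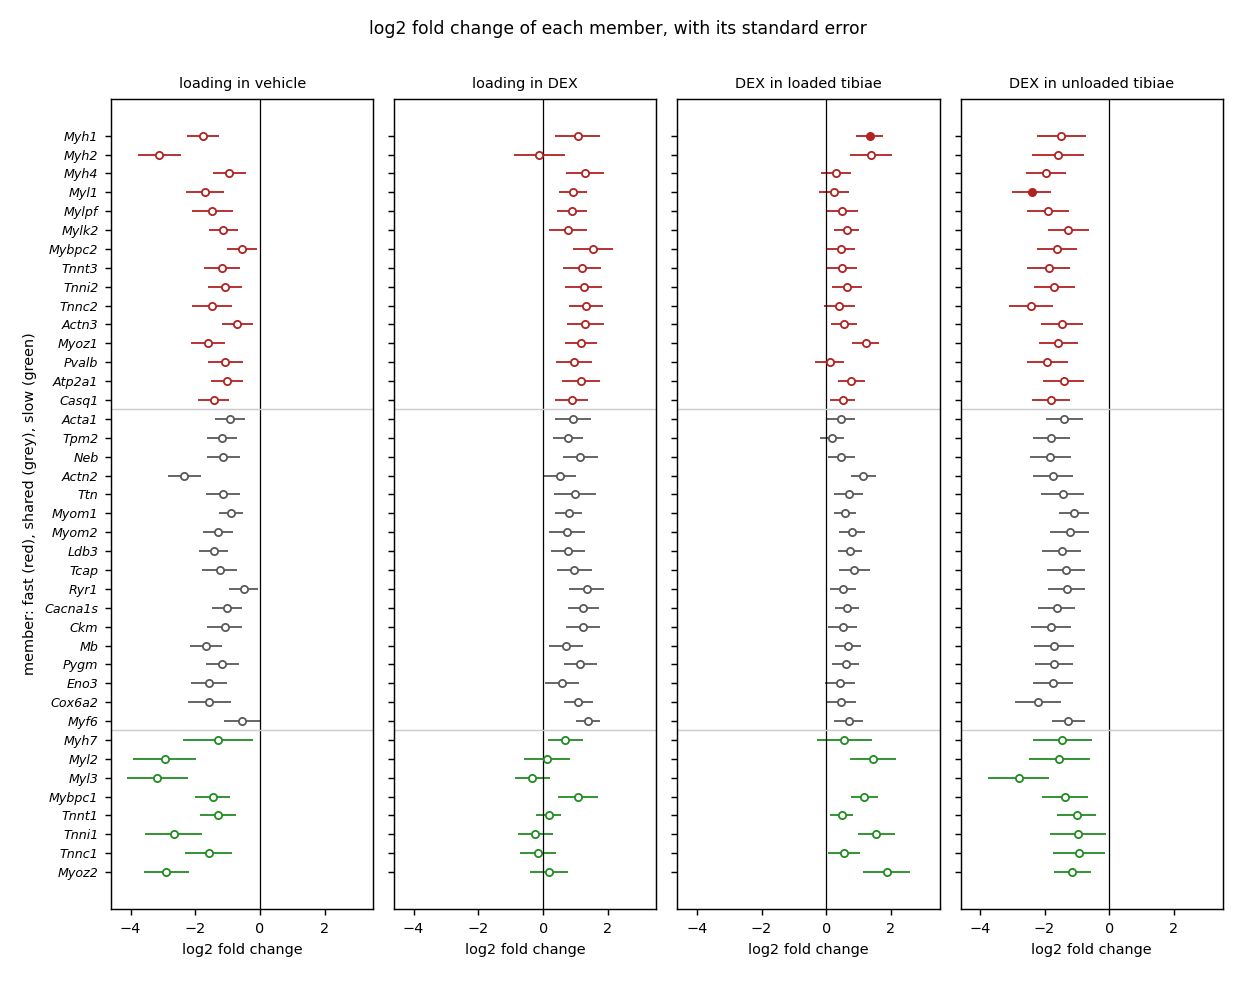
log2 fold change of each member with its standard error as a bar, in the 4 pairwise comparisons, with fast genes in red, shared genes in grey and slow genes in green, and a filled circle where the edgeR adjusted p was under 0.05. Every member lies left of 0 for loading in vehicle and for DEX in unloaded tibiae, and filled circles mark only Myh1 and Myl1.

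Loading was then compared in DEX-treated mice. Here most of the muscle genes read higher in the loaded tibiae: 36 of 40 had a positive log2 fold change, with a median of 0.94, against 0.02 over all 22541 genes tested, of which 52.1% were positive. None of the 40 passed the adjusted threshold in edgeR and 0% of all genes did. DESeq2 also called none, and 0% of all genes. At an unadjusted p under 0.05 were 12 of the 40, against 4.25% of all genes. Myf6 had the smallest p-value, at 1.37 ± 0.37 (SE), edgeR adjusted p = 0.733.

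The fast genes had a median log2 fold change of 1.17 and the slow genes 0.15, and over the alternatives the slow median ran from -0.15 to 0.54. Mybpc2 stood at 1.53 ± 0.61 (SE), Tnnc2 at 1.33 ± 0.52 (SE), Myh4 at 1.30 ± 0.59 (SE), Ckm at 1.23 ± 0.53 (SE), Tnnt3 at 1.20 ± 0.58 (SE), Acta1 at 0.92 ± 0.55 (SE), Ttn at 0.98 ± 0.65 (SE) and Mb at 0.71 ± 0.53 (SE). Tnni1 stood at -0.24 ± 0.54 (SE). The size of these values depended on the single high unloaded library. Without DEX_Ctrl replicate 5, 8 of the 40 genes rose, against 0.165% of all genes, the median was 1.93 and Myh1 went from 1.06 to 2.70. That library also had the lowest sums of its group for osteoblast markers (6066 CPM, against 15971 to 35059 in the other 3 and 4537 to 22939 in DEX_Load), erythroid markers (3740 CPM, against 7294 to 11597 and 3974 to 11563) and B cell markers (18.8 CPM, against 40.4 to 101 and 18.0 to 71.0). Its neutrophil sum was the highest of its group (15672 CPM, against 8574 to 13895 and 6857 to 16497), and its background reads the lowest (800.4 CPM, against 979 to 2918 in the other 3). Tendon and periosteum sums lay between 2240 and 2274 CPM in the 4 DEX_Ctrl libraries and between 1326 and 2696 CPM in DEX_Load. The part of these markers in the muscle values was not tested. With background as a covariate the median of the 40 genes was 1.42 and 37 were positive. Of the further muscle genes 62 were tested, 57 had a positive log2 fold change and none passed. Among them Cacnb1 (a subunit of the voltage sensor) stood at 0.85 ± 0.24 (SE), edgeR adjusted p = 0.733.

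DEX was next compared with vehicle in loaded tibiae. The muscle genes were modestly higher under DEX: all 39 tested had a positive log2 fold change, from 0.11 to 1.87, with a median of 0.58, against 0.004 over all 19780 genes. Myl3 was filtered out for low counts. Only Myh1 rose past the adjusted threshold, at 1.34 ± 0.41 (SE), edgeR adjusted p = 0.0368, which is 1 of 39, while 12.9% of all genes rose and 21.3% were called in either direction. At an unadjusted p under 0.05 were 6 of 39, against 37.2% of all genes, so the share of muscle genes past either threshold did not exceed that of all genes. The call on Myh1 was lost on leaving out any of 7 of the 10 libraries in turn, with edgeR adjusted p up to 0.0934, and in 5 other alternatives, where it reached 0.638 with the background covariate. The count of muscle genes that rose was 7 of 39 without Vehicle_Load replicate 5 (16.1% of all genes rose in that fit), 5 of 40 without DEX_Load replicate 2 (17.3%) and 3 of 40 without DEX_Load replicate 1 (8.76%).

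Slow genes had a median of 1.18 and fast genes 0.51, but with background reads as a covariate the order turned, to 0.17 for slow and 0.77 for fast genes. The limit of that fit is given below. Next to Myh1 stood Actn2 at 1.15 ± 0.39 (SE), edgeR adjusted p = 0.0504 and Myoz1 (the fast counterpart of Myoz2) at 1.22 ± 0.42 (SE), edgeR adjusted p = 0.0530. Myoz2 was at 1.87 ± 0.73 (SE), Tnni1 at 1.55 ± 0.56 (SE), Mybpc1 at 1.18 ± 0.42 (SE) and Myh2 at 1.38 ± 0.65 (SE). By contrast Myh4 stood at 0.30 ± 0.47 (SE), Acta1 at 0.46 ± 0.42 (SE) and Ttn at 0.69 ± 0.46 (SE). Among the further muscle genes 5 of 61 (8.2%) rose and none fell, against the same 12.9% of all genes. Among those that rose were Musk (the receptor kinase of the neuromuscular junction) at 1.41 ± 0.37 (SE), edgeR adjusted p = 0.0197, Lmod2 (which lengthens thin filaments) at 1.20 ± 0.33 (SE), edgeR adjusted p = 0.0247, Myh8 at 1.01 ± 0.29 (SE), edgeR adjusted p = 0.0272, and Slc2a4, the insulin-responsive glucose transporter. Background reads moved in the same direction, between 1097 and 6494 CPM in DEX_Load against 260.5 to 932.3 CPM in Vehicle_Load, and 7 of the 12 marker lists did not overlap between the groups. Lower in DEX_Load were those of osteoblasts (4537 to 22939 against 63397 to 94883 CPM), tendon and periosteum (1326 to 2696 against 5405 to 9600 CPM), chondrocytes (124 to 467 against 737 to 2319 CPM), osteocytes and B cells. Higher were those of neutrophils (6857 to 16497 against 4155 to 6124 CPM) and cardiac muscle (18.3 to 60.9 against 8.60 to 14.8 CPM). With background as a covariate none of the 39 was called and 32 stayed positive, while 0.0202% of all genes rose. Background did not overlap between the groups, so this fit cannot tell background from DEX. The part of these shifts in the muscle values was not tested.

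In unloaded tibiae DEX gave the opposite direction. All 40 genes read lower in DEX_Ctrl than in Vehicle_Ctrl, with log2 fold changes from -2.81 to -0.94 and a median of -1.58, against 0.03 over all 19738 genes. One gene fell past the threshold: Myl1 at -2.40 ± 0.61 (SE), edgeR adjusted p = 0.0359, which is 1 of 40, while 3.99% of all genes fell and 6.84% were called in either direction. At an unadjusted p under 0.05 were 28 of 40, against 24.6% of all genes. Tnnc2 came next at -2.42 ± 0.69 (SE), edgeR adjusted p = 0.0554. Myl3 stood at -2.81 ± 0.93 (SE), Cox6a2 (a muscle subunit of cytochrome c oxidase) at -2.22 ± 0.71 (SE), Myh4 at -1.95 ± 0.61 (SE), Ckm at -1.81 ± 0.62 (SE), Mb at -1.71 ± 0.63 (SE), Ttn at -1.43 ± 0.66 (SE) and Acta1 at -1.39 ± 0.58 (SE).

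Here the fast genes had the more negative median, -1.70 against -1.26 for the slow genes. Tnni1 stood at -0.96 ± 0.86 (SE), and at 0.55 without Vehicle_Ctrl replicate 4. The count of genes that fell depended on single libraries. It was 32 of 40 without DEX_Ctrl replicate 5 (3.99% of all genes fell in that fit) and 15 without the unnumbered Vehicle_Ctrl library (5.69%). It was 0 without any one of Vehicle_Ctrl replicates 1, 2 and 5 or DEX_Ctrl replicates 1, 2 and 3, where between 0.398% and 3.49% of all genes fell. With DEX_Ctrl replicate 4 kept it was 16 (9.08%). Among the further muscle genes 6 of 62 (9.68%) fell and none rose, beside the 3.99% of all genes that fell with all 9 libraries. They were Tmod1 (which caps thin filaments) at -0.90 ± 0.19 (SE), edgeR adjusted p = 0.0202, Cacnb1 at -1.23 ± 0.31 (SE), edgeR adjusted p = 0.0350, Fabp3 (a fatty acid carrier of oxidative muscle) at -2.67 ± 0.68 (SE), edgeR adjusted p = 0.0360, Sgca (alpha-sarcoglycan) at -1.56 ± 0.40 (SE), edgeR adjusted p = 0.0369, and also Lmod3 and Cox8b. Of the 12 marker lists 5 did not overlap between these groups. Tendon markers were lower (2240 to 2274 CPM against 3404 to 7621 CPM), as were osteoblast (6066 to 35059 against 41011 to 144462 CPM), osteocyte and B cell markers, and neutrophil markers were higher (8574 to 15672 against 4836 to 7016 CPM). Their part in the muscle values was not tested.

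The interaction asks whether loading acted differently under DEX and vehicle, and uses the libraries of the comparisons above again. All 40 interaction terms were positive, from 1.44 to 3.03, with a median of 2.23, against 0.07 over all 23653 genes. None passed the adjusted threshold in edgeR, and 0% of all genes did, while 37 of 40 had an unadjusted p under 0.05, against 12.1% of all genes. DESeq2 called none of the 40, and gave a positive call to 0.199% of all genes. The smallest p-value was that of Actn2 at 2.83 ± 0.78 (SE), edgeR adjusted p = 0.341. Myh2 stood at 2.93 ± 1.12 (SE), Myh1 at 2.77 ± 0.90 (SE), Myl1 at 2.59 ± 0.81 (SE), Tnni1 at 2.44 ± 1.09 (SE), Tnnc1 at 1.44 ± 0.97 (SE), Ttn at 2.08 ± 0.84 (SE) and Acta1 at 1.82 ± 0.77 (SE). Fast genes had a median of 2.30 and slow genes 2.47, an order that turned in 7 of 29 alternatives, among them the background covariate (2.45 and 1.87), the replicate block (3.17 and 2.15) and leaving out DEX_Ctrl replicate 5 (3.31 and 2.36). Without DEX_Ctrl replicate 5, 9 of the 40 passed with a positive term, against 0.203% of all genes. Of the further muscle genes 61 of 62 were positive and none passed, with Fabp3 at 3.18 ± 0.84 (SE), edgeR adjusted p = 0.328.

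The log2 ratio of the slow to the fast gene was tested for 7 pairs, with 0.5 CPM added to each level. It does not set the balance of fibre types apart from the amount of muscle: slow genes varied more against the summed level of the other members (median SD 1.32) than in their own level (1.19), so a ratio also moved with its fast gene. None of the 28 tests (7 pairs in 4 comparisons) had an adjusted p under 0.05 in an exact two-sided permutation test over libraries, whose smallest possible p was 0.00794 for 5 against 5 libraries and 0.0159 for 5 against 4. The smallest p-value, which is the smallest that design can give, belonged to the troponin C pair Tnnc1/Tnnc2 for loading in DEX, which went from -7.04 ± 1.70 in DEX_Ctrl to -8.95 ± 0.75 in DEX_Load (log2, SD, n = 4 and 5, groups without overlap, exact permutation p = 0.0159, adjusted p = 0.444). Tnnc1 had 5 to 33 counts in all libraries but Vehicle_Ctrl replicate 4, which had 121, and 74.0% of the exon bases of Tnnc2 overlap exons of Ube2c. In DEX_Ctrl against Vehicle_Ctrl the same pair differed by 2.37 (exact permutation p = 0.0952, adjusted p = 0.485). The heavy chain pair Myh7/Myh4 stood at -9.64 ± 1.81 in Vehicle_Ctrl, -9.67 ± 2.28 in Vehicle_Load, -7.76 ± 1.63 in DEX_Ctrl and -8.94 ± 1.51 in DEX_Load. For loading in vehicle the differences of the 7 pairs ran from -0.76 for Mybpc1/Mybpc2 (exact permutation p = 0.191) to 0.94 for Tnnc1/Tnnc2 (exact permutation p = 0.373).

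**Figure D5:**
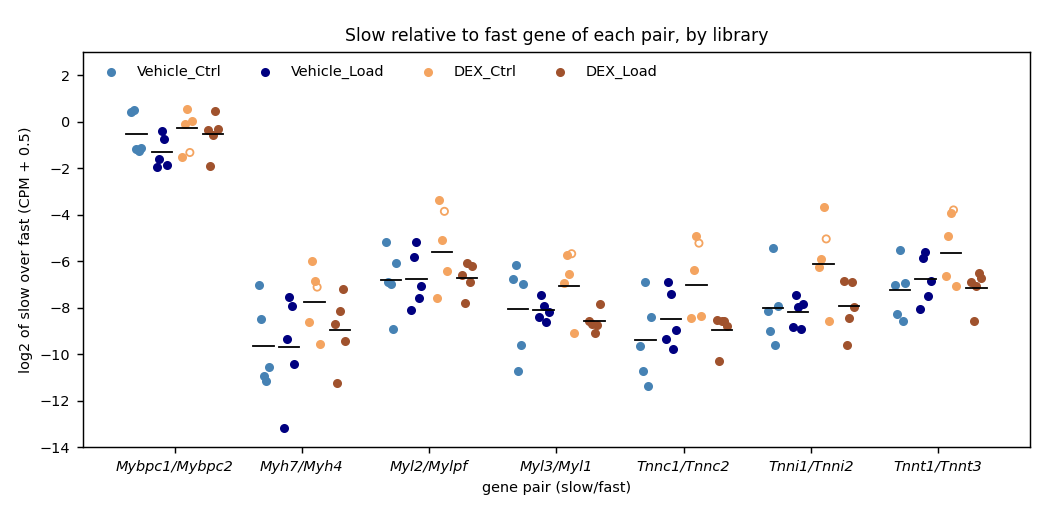
log2 ratio of the slow to the fast gene of 7 pairs in each library, with group means as black bars and DEX_Ctrl replicate 4 as an open circle left out of the mean. Mybpc1/Mybpc2 lies near 0 and the other pairs far below it, and the DEX_Ctrl means of the 3 troponin pairs, from -7.04 to -5.64, lie above those of the other groups.

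Over all fast and slow genes, the log2 ratio of the summed slow to the summed fast genes was -5.98 ± 0.60 in Vehicle_Ctrl, -6.07 ± 0.55 in Vehicle_Load and -5.61 ± 0.63 in DEX_Load (SD, n = 5 each), and -5.31 ± 0.80 in DEX_Ctrl (SD, n = 4). In each of the 4 comparisons the difference between these means was smaller than the larger of the 2 SDs, and Mybpc1 made up most of the slow sum.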

How the data were processed

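Bulk RNA-seq of 20 mouse tibiae was analysed from the deposited table of RSEM expected counts per gene, which the authors made from frozen, pulverised bone with a stranded total RNA kit. Per the submitters' processing notes, reads were aligned with STAR 2.7.10a and counted with RSEM 1.2.28 on GRCm38. RSEM shares reads among genes with the same sequence, which can move counts between myosin genes. Expected counts were rounded to whole numbers (10.6% to 14.0% of genes held a fraction, depending on the library), and 37 of 54446 gene identifiers had no match in GENCODE vM21.

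Each comparison used filterByExpr, TMM scaling and the quasi-likelihood test of edgeR 4.0.16 in R 4.3.3, with Benjamini-Hochberg adjustment over all genes tested and a threshold of 0.05. The SE given with each log2 fold change was not estimated separately. It was the absolute log2 fold change divided by the square root of the test's F statistic. DESeq2 1.42.0 was an alternative. Levels are CPM with TMM factors over all 20 libraries and 22659 genes. Pair ratios used log2(CPM + 0.5) and exact two-sided permutation tests over libraries, adjusted over 28 tests. The edgeR test was run on simulated counts for loading in vehicle and for the interaction. Those counts had independent genes and a fixed dispersion, so they do not copy genes that rise and fall together between libraries. The study removed DEX-4 without saying which limb, so leaving DEX_Ctrl replicate 4 out of means and fits was a choice. DEX_Load replicate 4 had the lowest total of all libraries, at 4641437 counts. Leaving it out in place of DEX_Ctrl replicate 4 gave a member median of 1.27 for loading in DEX and 2.55 for the interaction. No member was called in these fits, and 0% of all genes were. In each vehicle group 1 column carried a number that no label has, and it was assigned to its group only and called unnumbered. Both tibiae of a mouse were used, but no label says which libraries share a mouse. The fits treat libraries as independent, so the p-values for loading and for the interaction take no account of that pairing.

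The 40 members and all lists were chosen with earlier results of these data known, as were the fibre types and pairs. Genes with values in every library were a fixed set of 20, plus the gene with the smallest p-value in each comparison, 22 in all. Fold changes are also given for the genes at either end of a comparison and for up to 4 further muscle genes, chosen after their values were seen, and 1 of those further genes is not reported here. Other alternatives were other filters and size factors, TMM without the members, a replicate block, a covariate for background reads, other pseudocounts, all 20 libraries, and leaving out each library. Counts give the depth behind each value, from 4641437 to 13032018 per library, and genes with few counts are named as such.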

Additional observations from a re-analysis of the deposited data

Results flagged for a closer look

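Among the 4 DEX_Ctrl libraries used, replicate 5 lay far from the other 3 for Myh1 (4646 CPM), Mb (186 CPM) and Actn2 (154 CPM), with gaps to the nearest library of 0.853, 0.859 and 0.838 of the group's range. Of 92 groups of values checked this way these 3 passed the limit, where 1 in 20 groups would give 4.6. Most of the genes shared their highest and lowest libraries, so the groups are not independent. Nothing is drawn from that comparison. The 3 come from the same library, in which 35 of the 40 genes were at the highest of the group. Without it, 32 of the 40 genes fell with DEX in unloaded tibiae, where 3.99% of all genes fell, and 8 rose with loading in DEX, where 0.165% of all genes rose.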

How the results depend on the processing

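The median log2 fold change of the members kept its sign under every alternative run: -1.66 to -0.88 for loading in vehicle (19 alternatives), 0.67 to 1.93 for loading in DEX (20), 0.36 to 0.94 for DEX in loaded tibiae (19), -2.64 to -1.28 for DEX in unloaded tibiae (19) and 1.94 to 3.16 for the interaction (29). The counts of members called did not. In brackets is the share of all genes called in the same direction. For loading in vehicle, 0 became 2 with DESeq2 (0.462%) and 3 with no filter (0.0656%). For DEX in loaded tibiae, 1 became 5 with DESeq2 (17.5%), 2 with DESeq2 size factors (13.1%), 4 with no filter (15.3%), 3 with at least 10 counts in every library (7.44%) and 0 with the background covariate (0.0202%). For DEX in unloaded tibiae, 1 became 4 with DESeq2 (7.46%), 23 with no filter (2.63%), 2 with at least 10 counts (5.8%), 3 with the covariate (5.41%), 5 with all 4 groups in the model (4.72%) and 16 with all 20 libraries (9.08%). Leaving out 1 library gave 0 to 8 for loading in DEX (0.165% at the highest count) and 0 to 7 for DEX in loaded tibiae (16.1%). It gave 0 to 32 for DEX in unloaded tibiae (3.99%) and 0 to 9 for the interaction (0.203%). The 7 were 7 of 39 tested, near the share of all genes. The cause was not tested. Over all genes the number called ran from 0 to 141, 0 to 39, 28 to 9016, 129 to 2922 and 0 to 54 over the alternatives of the 5 fits. Slow to fast pairs passed in none of their alternatives. Without Ttn, the summed member level, DEX_Load, was 28874 CPM.

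With the replicate number as a block (replicate block), 0 members were called for DEX in loaded tibiae (7.75% of all genes rose) and 19 for DEX in unloaded tibiae (1.88% of all genes fell), and 0 in the other fits. The same libraries without the block, an alternative added after the data were seen, gave 0 (2.78%) and 4 (1.87%). Loaded and unloaded tibiae came from the same mice, but no label ties a number to a mouse. DEX and vehicle mice were different animals, so in fits of DEX against vehicle a shared number marks no mouse. The counts called with the block in those fits are not a paired result. The deviations of same-numbered libraries had correlations of -0.279 to 0.277 for loading in vehicle, where 0 of 4 matched best with their own number, and of 0.0345 to 0.381 for loading in DEX, where 3 of 4 did. Since not every pair deviated together, the numbers were not taken to pair the libraries. With the block the median of the members was -1.63 for loading in vehicle and 1.33 for loading in DEX. A paired sign-flip test of the ratios was not run as a result, since 4 pairs or fewer cannot reach the threshold.

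Over all members and alternatives, 45 of 4190 fold changes had the opposite sign to the value reported, none of them called: 2 for loading in vehicle, 19 for loading in DEX, 18 for DEX in loaded tibiae, 5 for DEX in unloaded tibiae and 1 for the interaction. For DEX in loaded tibiae the background covariate turned 7 of 39, with Myh7 at -2.06, Tnnc1 at -0.81 and Cox6a2 at -0.63. Background did not overlap between those groups, so that fit cannot tell background from DEX. Of the fold changes printed above 3 turned, in 5 alternatives: Myh7 for loading in vehicle with the covariate (0.12) and without Vehicle_Ctrl replicate 1 (-2.56 to 0.57 over libraries left out), Tnni1 for loading in DEX without DEX_Ctrl replicate 3 or DEX_Load replicate 2 (0.40 and 0.0092, over a range from -0.59 to 0.40), and Tnni1 for DEX in unloaded tibiae without Vehicle_Ctrl replicate 4 (-1.60 to 0.55). Depth limits the slow genes most: Myl2 had 1 to 128 counts, Myl3 3 to 149 and Tnni1 3 to 201.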

Other observations

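Over the 11 myogenic regulators, developmental myosins and end plate genes among the further muscle genes, Vehicle_Ctrl replicate 4 was the highest library of its group for 11 and the highest of the 19 libraries for 7. DEX_Ctrl replicate 3 was the highest of its group for 6 and DEX_Load replicate 4 for 6. Myh3, the embryonic heavy chain, read 11.1, 1.91, 365, 19.8 and 4.84 CPM in Vehicle_Ctrl and 5.65, 8.69, 9.26, 4.27 and 11.0 CPM in Vehicle_Load. It read 2.90, 0.901, 59.2, 9.38 and 10.4 CPM in DEX_Ctrl and 10.7, 2.94, 3.63, 20.9 and 23.0 CPM in DEX_Load. Myh8, the perinatal heavy chain, read 12.7, 2.65, 388, 36.4 and 10.2 CPM in Vehicle_Ctrl and 14.6, 13.5, 7.63, 9.57 and 6.90 CPM in Vehicle_Load. It read 6.88, 3.49, 163, 25.1 and 24.2 CPM in DEX_Ctrl and 18.2, 10.7, 33.1, 17.8 and 22.4 CPM in DEX_Load. Pax7, the factor of muscle stem cells, was at most 3.25 CPM in Vehicle_Ctrl, in replicate 4, and reached 9.76 CPM in DEX_Load replicate 4. These libraries and genes were chosen after their values were seen, and no test was made.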
